A study of Mus musculus with 2 samples.

Results

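Mir101a and Mir101b are the mouse genes for miR-101, a microRNA made at 2 loci on different chromosomes. They were taken by name from the 2202 annotated miRNA genes of an adrenal gland dataset. The 2 genes were chosen by a measured value, the scaled sense read count, which was higher in replicate 2 than in replicate 1 for both. The difference between replicates is therefore given below as a description, without a test. Small RNA of adrenal gland tissue from the adult male mouse, aged 8 to 10 months, was sequenced. The strain is recorded as 5xFAD/CAST. The first name is that of a transgenic mouse model of Alzheimer's disease and the second that of an inbred line derived from wild mice. Whether the transgenes were present is not stated. The RNA was below 30 nucleotides. The 2 libraries, called replicates 1 and 2, form 1 group with no control. They have separate sample records and 1 donor record, so the number of animals behind n = 2 is not known and the spread between the libraries may be technical in part.

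A microRNA is cut from a hairpin transcript, first by Drosha in the nucleus and then by Dicer in the cytoplasm, and 1 of the arms guides an Argonaute protein to messenger RNAs. Pairing runs mainly through the seed, bases 2 to 8 of the guide, so a shift of the 5′ end by 1 base changes the seed. The 3p arm of miR-101 is best known for repressing Ezh2, the methyltransferase of Polycomb repressive complex 2, and it is widely studied as a growth-restraining microRNA that is lost in tumours. Every read below is assigned to a hairpin gene, so the arm and the 5′ end of the read were not measured.

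The annotated arms show why these loci are treated as a family and how far their reads can be told apart. Each arm is written 5′ to 3′ with its seed in capitals, from RefSeq on GRCm38.p6. Both genes had RefSeq entries.
miR-101a-3p: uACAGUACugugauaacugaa
miR-101b-3p: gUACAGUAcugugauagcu
miR-101c: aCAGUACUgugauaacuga
miR-144-3p: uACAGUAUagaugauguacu
miR-101a-5p: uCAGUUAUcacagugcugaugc
miR-101b-5p: uCGGUUAUcaugguaccgaugcu
The 3p arms of Mir101a and Mir101b matched at 17 of 18 aligned bases. Their single difference was A16G, with positions counted from the 5′ end of miR-101a-3p and the base of miR-101a-3p written first. The annotated miR-101b-3p begins 1 base earlier, so its seed is UACAGUA where that of miR-101a-3p is ACAGUAC. The 5p arms were less alike, with 17 of 22 bases identical and 5 substitutions (A3G, C11U, A12G, G15A and U17C, counted on miR-101a-5p).

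The whole hairpins show what surrounds the shared 3p arm. Annotated arms are in capitals, and the sequences are those of GENCODE M21 transcripts.
Mir101a: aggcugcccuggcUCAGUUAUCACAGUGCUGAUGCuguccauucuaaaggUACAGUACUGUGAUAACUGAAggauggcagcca
Mir101b: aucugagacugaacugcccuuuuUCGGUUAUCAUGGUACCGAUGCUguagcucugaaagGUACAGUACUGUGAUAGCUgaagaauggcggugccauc
The Mir101a hairpin is 83 bases long and the Mir101b hairpin 97 bases. In a global alignment 68 of 82 aligned bases were identical (82.9%). The longest run common to both was 20 bases, aaagguacaguacugugaua, which spans the end of the loop and the first 15 bases of miR-101a-3p. The GC content of the hairpins was close, at 49.4% for Mir101a and 47.4% for Mir101b. Their predicted folds were not, with a minimum free energy of −47.0 kcal/mol for Mir101a and −39.6 kcal/mol for Mir101b. Per base, Mir101a was predicted more stable than 94.4% of the 2202 annotated hairpins and Mir101b than 63.4%.

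The loci have different hosts. Mir101a (ENSMUSG00000065451.1) is on chromosome 4, minus strand, from 101346945 to 101347027 of GRCm38 (mm10). It falls within exon 2 of the 2 exons of E130102H24Rik, a long noncoding RNA of the same strand. Mir101b (ENSMUSG00000065556.1) is on chromosome 19, plus strand, from 29135279 to 29135375. It falls within intron 8 of Rcl1, a protein-coding gene of the same strand that is known from ribosomal RNA processing. No other miRNA gene lay within 1126066 bases of Mir101b or 1689115 bases of Mir101a, so neither has a cluster mate in this annotation.

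Uniquely mapped reads could be told apart between the genes along most of each hairpin, and least at the 3p arm. Of the 63 windows of 21 bases in the Mir101a hairpin, 0 occurred unchanged in Mir101b and 8 came within 1 mismatch. The same 8 of 77 held for Mir101b against Mir101a. The 8 windows began in the loop or at the first bases of the 3p arm. A read that starts at the 5′ end of miR-101a-3p was distinct from Mir101b by exact match from a length of 16 bases, and one that starts at the 5′ end of miR-101b-3p was distinct from Mir101a from 17 bases. An aligner that allows 1 mismatch without preferring the exact match could not tell the full 3p arms apart, and which mismatches the aligner allowed is not known here. Away from the family, the closest window in any other annotated hairpin differed from Mir101a and from Mir101b by 4 bases. The windows were compared with annotated hairpins only, so like sequences elsewhere in the genome were not searched for.

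**Figure D1:**
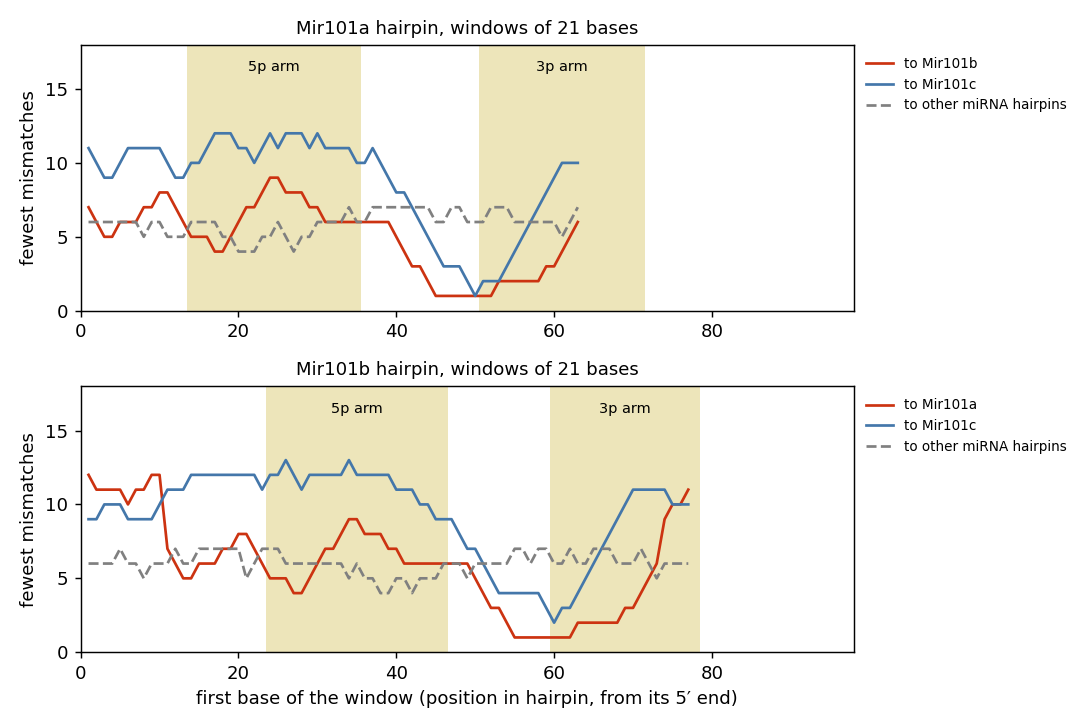
Fewest mismatches (vertical axis, bases) between each window of 21 bases along the Mir101a hairpin (upper panel) and the Mir101b hairpin (lower panel) and any window of the other Mir101 genes or of all other miRNA hairpins, against the window's first base. Shading marks the annotated arms. The line to the paralog falls to 1 mismatch around the start of the 3p arm and stays at 4 or more in the 5p arm, while the line to other hairpins is never below 4.

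Mir101c, the third gene of the name, was not among the chosen genes and had 0 reads in both libraries. It lies on chromosome 9 at 3038669 to 3038743. The level that 0 reads allow, taken as 3 uniquely mapped reads, is 0.442 CPM for replicate 1 and 0.973 CPM for replicate 2. CPM is the number of sense reads per 1000000 sense reads of all miRNA genes. All 19 bases of miR-101c occur inside miR-101a-3p, so a read of exactly these 19 bases maps to both genes and counts for neither. How many such reads there were was not measured, and the count of Mir101a is to this extent a lower limit. The annotated Mir101c hairpin had a predicted free energy of −16.1 kcal/mol and was more stable per base than 3.63% of annotated hairpins.

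Mir101a held 1525 sense reads in replicate 1 and 1953 in replicate 2, although replicate 2 was the shallower library. Totals were 6783227 sense miRNA reads in replicate 1 and 3084602 in replicate 2. Scaled, this was 225 CPM (exact Poisson 95% interval 214 to 236) in replicate 1 and 633 CPM (605 to 662) in replicate 2, with a mean of 429 ± 289 CPM (SD, n = 2). These intervals and those below treat each read as an independent count and cover counting error only. The tables carry no molecular identifiers, so reads copied from the same molecule could not be removed and the intervals may be too narrow.

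Mir101b held 1785 sense reads in replicate 1 and 1697 in replicate 2. This was 263 CPM (251 to 276) in replicate 1 and 550 CPM (524 to 577) in replicate 2, with a mean of 407 ± 203 CPM (SD, n = 2). Replicate 2 was the higher library for both genes, which is the value they were chosen on. Reads on the opposite strand numbered 0 for each gene in each library, so the column for both strands held the same counts.

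**Figure D2:**
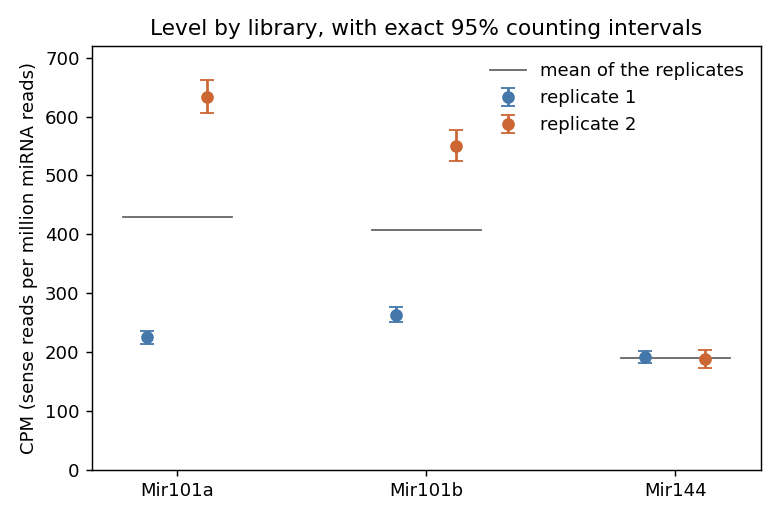
CPM (vertical axis) of Mir101a, Mir101b and the related-seed gene Mir144 in replicate 1 (blue) and replicate 2 (orange), with exact Poisson 95% intervals for counting error as bars and the mean of the 2 libraries as a line. Mir101a and Mir101b are at 225 and 263 CPM in replicate 1 and at 633 and 550 CPM in replicate 2, and Mir144 at 191 and 187 CPM.

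Together the 2 genes held 488 CPM in replicate 1 and 1183 CPM in replicate 2, or 0.0488% and 0.118% of sense miRNA reads. The pair was thus a minor component of the counted miRNA reads, at 836 ± 492 CPM (SD, n = 2). Reads of the pair that mapped to several places are not in these counts, and their number was not measured. By mean level Mir101a stood 105th and Mir101b 107th of all genes. Mir101a had rank 133 in replicate 1 and rank 87 in replicate 2, and Mir101b had ranks 115 and 94. Both genes passed a mean of 10 CPM and a mean of 100 CPM.

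The order of the 2 genes changed between the libraries. Mir101a supplied 46.1% of the pair's reads in replicate 1 (Wilson 95% interval 44.4 to 47.8) and 53.5% in replicate 2 (51.9 to 55.1). Mir101b was thus the higher in replicate 1, by a ratio of Mir101a to Mir101b of 0.854, and Mir101a in replicate 2, by 1.15. The mean share of Mir101a was 49.8% ± 5.26 (SD, n = 2), so which of the loci gave more reads was not resolved by these 2 libraries. Reads of the 3p arm that were assigned to the wrong gene of the pair would alter this share and leave the sum as it is. Reads that fitted both genes would count for neither, and so would be missing from the sum and could alter the share. Whether there were reads of either kind was not tested.

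Pairs of like hairpins on different chromosomes give a setting for this change of order. Among genes that averaged at least 10 CPM, 23 pairs on different chromosomes shared a run of 20 bases, formed by 41 genes. In the other 22 pairs the same gene was the higher in both libraries. The ratio of mean levels in those pairs ran from 1.22 (Mir23a over Mir23b) to 78.9 (Mir29c over Mir29b-1), with a median of 3.68, and was 1.05 for Mir101a over Mir101b. The Mir101 genes were thus also the most evenly matched of the 23 pairs in counted reads, and no test was made of the change of order. Reads that fit both genes of a pair map to several places and count for neither. The levels, ratios and gaps of the pairs therefore rest on the reads that could be told apart. How large a part of each gene's reads this was, and whether it was alike between pairs, was not measured. Several genes stand in more than 1 pair.

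**Figure D3:**
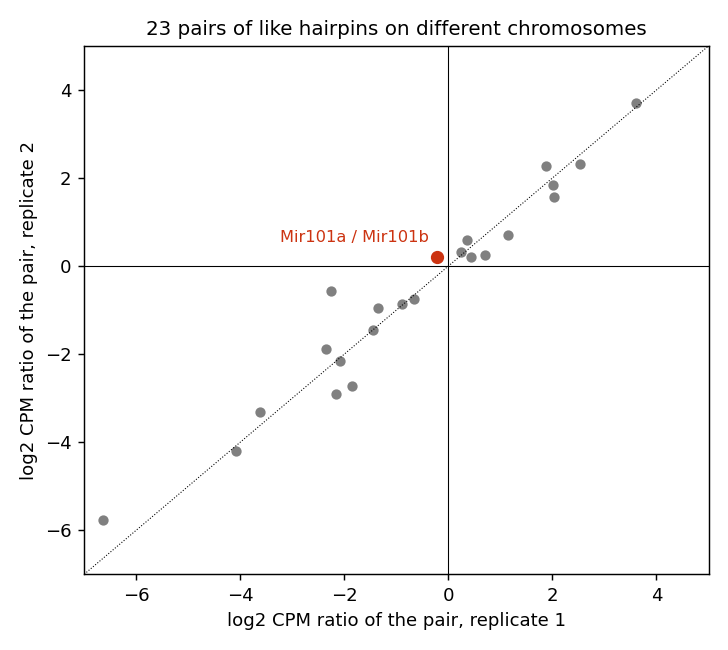
Log2 ratio of the CPM of the 2 genes of each of 23 pairs of like hairpins in replicate 1 (horizontal axis) and replicate 2 (vertical axis), with equality of the replicates dotted. The ratio of Mir101a to Mir101b, in red, is below 0 in replicate 1 (−0.23) and above 0 in replicate 2 (0.20), and the other 22 pairs keep their sign.

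The replicate difference, log2(CPM + 1) of replicate 2 minus replicate 1, was 1.49 for Mir101a (exact 95% interval of the ratio of scaled counts, in log2, 1.40 to 1.59). It was 1.06 for Mir101b (0.97 to 1.16). In linear terms Mir101a was 2.82-fold and Mir101b 2.09-fold higher in replicate 2. Among the 280 genes that averaged at least 10 CPM, 17 were at least 2-fold higher in replicate 2, which is 6.07%, and Mir101a and Mir101b were 2 of these because they were chosen on this difference. The median over the 280 genes was 0.01. In order of this difference Mir101a stood 5th and Mir101b 15th of the 280. Under edgeR TMM factors, DESeq2 size factors, scaling to all reads and the column for both strands, Mir101b stayed higher in replicate 2 but by less than 2-fold, with the lowest value, 0.92, under DESeq2 size factors. Those factors moved the median of all 280 genes to −0.12, and relative to the median of its own scaling Mir101b stood at 1.05 with the main scaling and at 1.05 under DESeq2 size factors, and Mir101a at 1.48 and 1.48. Apart from the pseudocount, a scaling factor shifts all genes alike, so this likeness follows from the arithmetic. The replicate differences of Mir101a and Mir101b lay 0.43 apart. In the other 22 pairs of like hairpins the median gap was 0.27, from 0.0029 (Mirlet7a-2 and Mirlet7c-1) to 1.42 (Mir26a-1 and Mir26a-2).

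**Figure D4:**
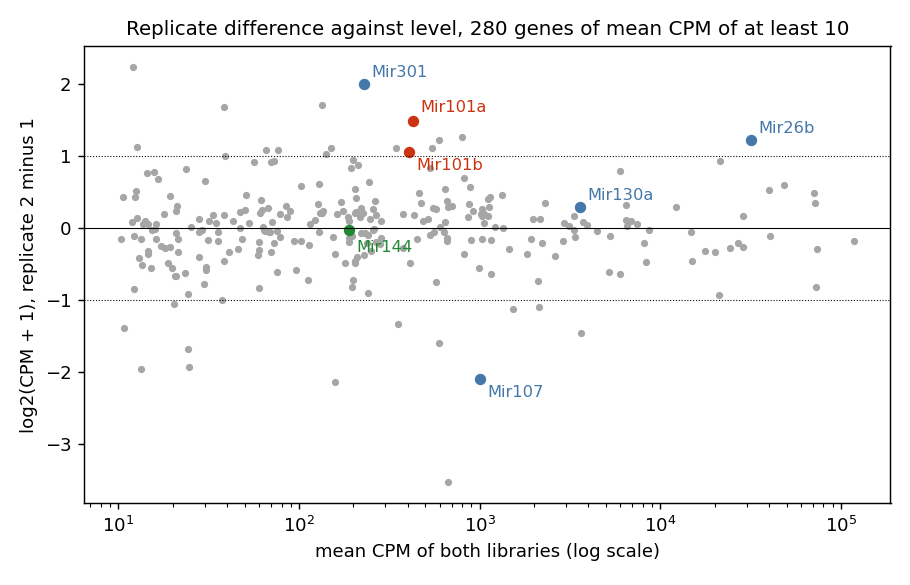
Difference in log2(CPM + 1) between replicate 2 and replicate 1 (vertical axis) against mean CPM (horizontal axis, log scale) for the 280 miRNA genes that averaged at least 10 CPM. Mir101a at 1.49 and Mir101b at 1.06 are in red and Mir144 in green, with dotted lines at 2-fold. Mir26b, Mir301, Mir107 and Mir130a, of comparable families, are in blue. The other plotted members of these families are grey, like the remaining genes.

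The 110 genes of at least 10 CPM within 5 percentage points of GC of Mir101a had a median difference of 0.0016, and the 109 around Mir101b a median of −0.05. Sequencing depth differed with the replicates. The part of GC content and of depth in the members' difference was not tested.

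Because the replicates of each member differed widely, its place among neighbours in level is loosely set. Mir101a differed by 408 CPM between replicates and Mir101b by 287 CPM. A gene was counted as separated from a member when it was on the same side of it in both libraries, each time by more CPM than either gene differed between its own replicates. The neighbours of Mir101a in mean level were Mir203 at 464 ± 111, Mir20a at 450 ± 31.8 and Mir92-1 at 436 ± 37.7 CPM above it, and Mir342 at 413 ± 97.7, Mir101b and Mir667 at 377 ± 49.9 CPM below (SD, n = 2 each). Mir101b had the neighbours Mir92-1, Mir101a, Mir342, Mir667, Mir106b at 376 ± 35.7 and Mir298 at 354 ± 216 CPM. The neighbours above were not separated from either member. Of the 104 genes above Mir101a, 63 were separated, and of the 106 above Mir101b, 68 were. The measure cannot separate any gene below the members, because each member differed between replicates by more than its whole level in replicate 1.

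The genes of at least 100 CPM whose replicate difference was closest to that of Mir101a were Mir370 (1.70), Mir195a (1.26), Mir214 (1.22), Mir26b (1.22) and Mir152 (1.12). Those closest to Mir101b were Mir700 (1.02), Mir487b (1.11), Mir148a (1.11), Mir152 (1.12) and Mir182 (0.95). The likeness is the gap in log2 difference, over 2 libraries, and was at most 0.37 for Mir101a and 0.11 for Mir101b. With 2 libraries any gene of like difference has this pattern.

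The seed was searched for in 1738 mature arms annotated by RefSeq, which cover 1018 of the 2202 genes in the tables. Among these arms, only miR-101a-3p carried its seed at bases 2 to 8, and only miR-101b-3p carried its own. Bases 2 to 7 of miR-101a-3p recurred in miR-144-3p, the product of an erythroid gene, which matched miR-101a-3p at 8 of 20 aligned bases, including the first 7. Mir144 held 1296 sense reads in replicate 1 and 578 in replicate 2, or 191 and 187 CPM, a log2 difference of −0.03. Its level of 189 ± 2.60 CPM (SD, n = 2) was below Mir101a and Mir101b in both libraries. Bases 2 to 7 of miR-101b-3p recurred in miR-582-5p, and Mir582 held 5 and 3 reads. The seed letters of miR-101a-3p also occurred near the 3′ end of miR-503-5p, outside its seed, and Mir503 stood at 205 ± 21.6 CPM.

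Other microRNAs described as repressors of Ezh2 were set beside the members as a list of 21 genes, namely the mir-26, mir-138 and mir-124 genes, Mir214, Mir98 and the 11 genes annotated as let-7. Of these, 18 reached 10 CPM. In replicate 2, 3 were at least 2-fold higher and 0 at least 2-fold lower, against 6.07% and 4.64% of the 280 genes, and the list's median difference was 0.32. The 3 genes were Mir26b (1.22), Mir26a-1 (2.24) and Mir214 (1.22), a gene known from mesenchymal cells. Mir26a-1, with 3.54 and 20.4 CPM for replicates 1 and 2, averaged 10 CPM only through the library in which it was higher, so nothing is read from its part in the count. The most abundant of the list were Mirlet7g at 117872 ± 10071, Mirlet7b at 71944 ± 12351, Mirlet7i at 40266 ± 2134, Mir26b at 31702 ± 17891, Mirlet7d at 28598 ± 2273 and Mirlet7e at 12164 ± 1741 CPM (SD, n = 2 each). In both libraries Mirlet7e, the lowest of these 6, stood above each Mir101 gene by more than the replicate difference of either. The let-7 genes and Mir98 had a median difference of 0.23, and 0 of 12 reached 2-fold in either direction. Mir124a-1, Mir124a-2 and Mir124a-3, known from neurons, had 0 reads in both libraries. Reads shared by these 3 genes would map to several places and count for none, so the zeros do not show that miR-124 was absent. These list counts describe 2 libraries, and earlier results had shown the mir-26 and Mir214 values before the list was drawn up.

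Other small families dispersed over several loci behaved differently from each other between the replicates. In the mir-26 family, intronic in Ctdsp genes, Mir26b went from 19051 to 44353 CPM, Mir26a-2 from 16.8 to 30.5 CPM and Mir26a-1 from 3.54 to 20.4 CPM. In the mir-103 and mir-107 family of Pank genes, Mir107 went from 1634 to 381 CPM, Mir103-2 from 102 to 8 reads and Mir103-1 from 19 reads to 1 read. In the mir-130 and mir-301 family, Mir301 went from 90.7 to 366 CPM, while Mir130a was at 3229 and 3940 CPM, Mir130b at 121 and 140 CPM and Mir301b at 1.47 and 4.54 CPM. In counted reads the 2 Mir101 genes were closer to each other than any pair within these 3 families, with a ratio of means of 1.05. Reads shared by Mir26a-1 and Mir26a-2, or by Mir103-1 and Mir103-2, map to several places and count for neither. The counts of these genes are to this extent lower limits, and so is their closeness to other members of their families not settled by the counts.

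Markers of cells that an adrenal gland holds were present in both libraries. The neuroendocrine list, for cells such as those of the medulla, summed to 63615 and 87243 CPM in replicates 1 and 2. The rise came almost wholly from Mir375, at 58717.5 and 82443.4 CPM. Mir7-2 rose from 113 to 143 CPM, while Mir7b stood at 4535 and 4423 CPM and Mir7-1 at 250 and 233 CPM. The endothelial Mir126a stood at 92610 and 52519 CPM. Smooth muscle markers summed to 29493 and 25630 CPM and leukocyte markers to 610 and 693 CPM. The 2 erythroid markers summed to 5542 and 2136 CPM. The fall came from Mir451a, at 5351 and 1949 CPM, while Mir144 stood at 191 and 187 CPM. The liver marker Mir122 stood at 257 and 57.7 CPM. Mir451a, Mir122, Mir126a and the smooth muscle sum were thus lower in the library in which Mir101a and Mir101b were higher. Mir375, Mir7-2 and the leukocyte sum were higher in that library. Within the leukocyte list Mir142, Mir150 and Mir223 were higher there and Mir155 was lower. Kidney markers summed to 45.3 and 39.6 CPM, with 1 of 3 at 0. Of 5 striated muscle markers 4 were at 0, of 6 neuronal markers 5 were at 0, and the 2 acinar pancreas markers summed to 0.885 and 0.324 CPM. Reads that mapped to several places were counted for no gene. Markers with like copies at several loci, such as Mir1a-1 and Mir1a-2 or Mir9-1 and Mir9-2, could therefore stand at 0 with their microRNA present. The zeros do not show that a cell type was absent. The part of cell composition in the members' replicate difference was not tested, and in whole tissue more cells of a type cannot be told apart from more RNA per cell.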

How the data were processed

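MicroRNA-seq read counts were analysed for 2 adrenal gland libraries of 1 group. The authors deposited, for each library, raw counts per miRNA gene for both strands, the sense strand and the opposite strand, with mm10 and GENCODE M21 named in the text beside them. The strand of each column was inferred from the layout. The aligner, read trimming and allowed mismatches were not given in the sources used here. Reads that mapped to several places (30.3% of all reads for replicate 1, 32.1% for replicate 2) were counted for no gene, and a CAST variant inside an arm could lower a count.

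Names, positions and hairpins came from GENCODE M21, in which all 2202 gene identifiers were found, and arms from RefSeq. CPM is the sense count per 1000000 sense miRNA reads. Lines for unmapped, multimapping and unassigned reads, 48.6% and 52.4% of all reads, stayed out of the totals. Differences were taken on log2(CPM + 1). Since the members were chosen on the replicate difference and there is 1 group, no test was made. Genes of mean CPM of at least 10 gave the background, with 2-fold as the limit. Named genes were the members, genes sharing seed bases, a list of Ezh2 repressors with its 6 most abundant genes, 3 neighbours in level on each side, the 5 closest in replicate difference, 3 comparable families and host genes. The members and lists were chosen with earlier results of these data known. Folds were predicted with RNAfold 2.7.2. Alternatives used edgeR 4.0.16 TMM factors and DESeq2 1.42.0 size factors, other totals, the column for both strands, pseudocounts, filters and single replicates. Scaling and intervals were tested on simulated data.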

Additional observations from a re-analysis of the deposited data

How the results depend on the processing

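Both members stayed higher in replicate 2 under every alternative scaling, the column for both strands and a pseudocount of 0.1 CPM, with log2 differences of 1.35 to 1.49 for Mir101a and 0.92 to 1.06 for Mir101b. Beyond their counting intervals, Mir101a moved to 1.39 under edgeR TMM factors, 1.35 under DESeq2 size factors and 1.38 with scaling to all reads, and Mir101b to 0.96, 0.92 and 0.95. These shifts follow from the scaling, whose median difference over genes of at least 10 CPM moved from 0.01 to −0.09, −0.12 and −0.09. Per 1000000 of all reads, a total that holds more reads, the mean level was 208 for Mir101a and 198 for Mir101b. Genes at least 2-fold higher in replicate 2 numbered 17 of 280, and 8 of 280 under DESeq2 size factors. They numbered 8 of 245 with scaling to all reads, 11 of 173 among genes of at least 100 CPM and 33 of 703 without a filter. Those at least 2-fold lower numbered 13 of 280, and 8 of 173 among genes of at least 100 CPM and 25 of 703 without a filter. Counts over different numbers of genes compare only as shares of these totals. DESeq2 size factors gave 8 higher and 17 lower, and TMM factors 12 higher and 17 lower. The other 26 alternative values, that of Mir101a just given included because its spread is wide, stayed within the spread, the counting interval or, for counts of genes, 1.5 times the value reported. With 1 group, a single replicate gives that replicate's own value, which always lies within the SD of the 2 libraries around their mean. The share of Mir101a in the column for both strands equals the main share, because the members had no reads on the opposite strand. These agreements were fixed in advance and say nothing about how stable the values are.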
